A study of Mus musculus with 12 samples.

Results

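The collagen genes of mouse liver and lung were examined in newborn *Man1a2*+/+ (WT) and *Man1a2*-/- (null) mice. They were taken as every gene symbol made of Col, a number, the letter a and a number, that is 1 gene for each collagen alpha chain. This rule gave 44 of the 24421 gene rows counted in each library. By structure, 11 of the genes encode fibrillar chains, 6 the basement membrane chains of type IV, 3 network chains and 4 transmembrane chains. A further 9 encode FACIT chains, which sit on the surface of fibrils, 6 the beaded filament chains of type VI, and 2 the multiplexins of vessel and epithelial basement membranes. The last 3 genes, *Col7a1*, *Col26a1* and *Col28a1*, were kept as other chains.

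Collagens are the main structural proteins of the extracellular matrix. Alpha chains are hydroxylated, glycosylated and wound into triple helices in the endoplasmic reticulum, and many are then trimmed and crosslinked outside the cell. Fibrillar collagens give connective tissue its tensile strength, whereas type IV collagen forms the sheet under epithelia and endothelia and is part of the thin barrier between air and blood in the lung. In the liver, stellate cells, portal fibroblasts and endothelial cells are known sources of collagen.

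*Man1a2* encodes a Golgi mannosidase that trims N-linked glycans, and the null allele (*Man1a2*tm1.1Ahe) lacks exon 2. Heterozygous mice were bred, and liver and lung were taken from pups soon after birth. Null pups of this line are known to die of respiratory failure. There were 3 libraries each of WT liver, null liver, WT lung and null lung, 12 in all, and no treatment was given. Counts covered whole tissue, so fewer cells of a type and less RNA per cell cannot be told apart in any result. Nothing in the labels says which pups were littermates, so p-values measure the spread between these libraries. Levels are given as CPM, a gene's counts as parts per 1e6 of the library total, scaled by TMM over all 12 libraries, and library totals ran from 26759463 to 42914295 counts.

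*Man1a2* itself stood at 87.0, 54.2 and 68.6 CPM in WT liver against 53.7, 48.2 and 50.2 in null liver, and at 105, 75.6 and 107 CPM in WT lung against 42.7, 49.8 and 50.2 in null lung. The null libraries were below the WT libraries in both tissues, and counts over whole genes do not show whether exon 2 was missing. Hepatocyte markers summed to 139459 to 228692 CPM over the 6 liver libraries. The 5 lung epithelial markers summed to 17146 to 23954 CPM in 5 lung libraries, but to 289 CPM in the library labelled null lung 1, where *Sftpc*, the surfactant protein C gene, stood at 26.6 CPM. All 5 skeletal muscle markers were higher in this library than in the other lungs, with a sum of 8268 CPM against 17.0 to 52.0 CPM. The 4 skin markers summed to 143 CPM against 3.76 to 6.71 CPM. In the library labelled null liver 1 the skeletal muscle sum was 6630 CPM against 2.36 to 4.55 CPM in the other livers, while its hepatocyte sum of 178756 CPM lay within their range. Null lung 1 correlated with the other lungs at r of 0.854 to 0.872 across genes, against 0.969 to 0.995 among the others. Both libraries, null lung 1 and null liver 1, are therefore shown apart throughout, and each comparison is given with and without them.

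**Figure D1:**
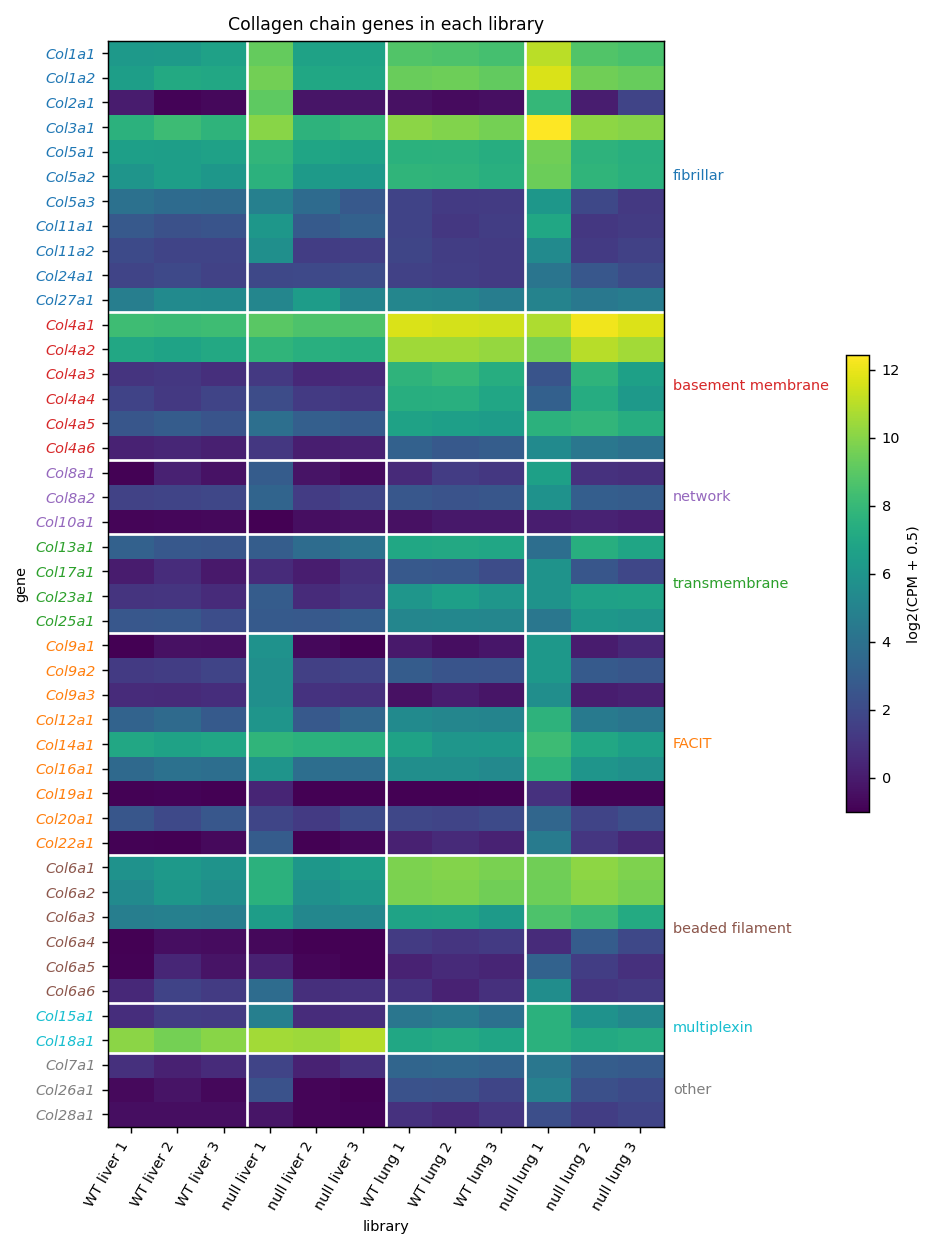
Level of each of the 44 collagen genes in each of the 12 libraries, as log2(CPM + 0.5), with genes grouped by class (rows) and libraries by genotype and tissue (columns). The type IV chains and *Col6a1*, *Col6a2* and *Col6a3* were brighter in WT lung than in WT liver, *Col18a1* was brighter in liver, and *Col2a1*, *Col9a1*, *Col9a3*, *Col11a1* and *Col11a2* were brightest in null liver 1 and null lung 1.

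The promoters of the type IV chains are shown because these genes were among those called in liver and, without null lung 1, in lung, and lie in head-to-head pairs that share a promoter region. *Col4a1* (chromosome 8, 11198423 to 11312826, minus strand) and *Col4a2* (chromosome 8, 11312805 to 11449287, plus strand) overlap by 22 bases at their starts in GENCODE M21 on GRCm38. *Col4a6* and *Col4a5* lie on chromosome X with 1308 bases between their starts, and *Col4a4* and *Col4a3* on chromosome 1 with 71 bases between them. RefSeq promoter windows on GRCm38.p6, from 250 bases before to 50 after a gene's start, were at hand for 35 of the 44 genes, some with more than 1 window. The windows of *Col4a1* (chr8:11312777-11313076, minus strand) and *Col4a2* (chr8:11312555-11312854, plus strand) are printed with the 78 bases that both hold in capitals, each on its own strand.
Col4a1: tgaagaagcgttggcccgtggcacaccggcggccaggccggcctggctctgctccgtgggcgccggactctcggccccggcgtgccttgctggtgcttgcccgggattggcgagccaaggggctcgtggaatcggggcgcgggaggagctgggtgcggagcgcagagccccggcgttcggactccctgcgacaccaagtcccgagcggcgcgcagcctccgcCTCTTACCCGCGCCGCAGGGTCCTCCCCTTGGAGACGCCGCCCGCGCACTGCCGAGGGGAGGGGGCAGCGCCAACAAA
Col4a2: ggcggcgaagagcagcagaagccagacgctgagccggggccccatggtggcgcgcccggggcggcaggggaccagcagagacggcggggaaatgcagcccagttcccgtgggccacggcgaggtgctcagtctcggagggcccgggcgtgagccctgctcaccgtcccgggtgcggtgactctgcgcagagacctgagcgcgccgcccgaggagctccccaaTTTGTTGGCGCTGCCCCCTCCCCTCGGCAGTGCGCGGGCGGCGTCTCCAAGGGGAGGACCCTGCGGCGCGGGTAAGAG
The windows of *Col4a5* (chrX:141475169-141475468, plus strand) and *Col4a6* (chrX:141474027-141474326, minus strand), a pair whose levels in lung are described below, are printed with the letters of a GC box, GGGCGG on either strand, in capitals.
Col4a5: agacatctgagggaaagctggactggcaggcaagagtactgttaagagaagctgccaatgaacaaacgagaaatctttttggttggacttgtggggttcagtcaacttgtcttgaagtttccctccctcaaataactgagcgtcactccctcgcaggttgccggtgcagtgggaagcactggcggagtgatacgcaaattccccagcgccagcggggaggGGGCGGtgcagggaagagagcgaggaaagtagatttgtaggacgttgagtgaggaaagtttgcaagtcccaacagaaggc
Col4a6: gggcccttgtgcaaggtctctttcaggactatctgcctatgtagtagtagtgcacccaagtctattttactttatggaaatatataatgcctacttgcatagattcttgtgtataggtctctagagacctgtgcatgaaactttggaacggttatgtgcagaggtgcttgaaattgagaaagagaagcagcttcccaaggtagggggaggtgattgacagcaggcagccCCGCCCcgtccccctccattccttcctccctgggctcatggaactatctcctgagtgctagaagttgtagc
GC content was 74.0% and 73.7% in the windows of *Col4a1* and *Col4a2*, and 52.7% and 48.3% in those of *Col4a5* and *Col4a6*. The median was 59.8% over the collagen windows and 52.7% over all 32851 windows. The GC box letters were found on either strand in each of the 4 windows, in 23 of 38 collagen windows (60.5%) and in 35.7% of all windows. The letters CCAAT were found in the windows of *Col4a1*, *Col4a2* and *Col4a5* but not *Col4a6*. They were in 34.2% of collagen windows and in 37.4% of all windows. The letters TATAAA were in none of the 4 windows, in 13.2% of collagen windows and in 13.6% of all windows. A match describes the letters in the window and is not a bound site.

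In WT liver, collagen genes summed to 2438, 2295 and 2490 CPM in the 3 libraries. Multiplexins made up 40.7% ± 5.55 (SD, n = 3) of collagen reads, fibrillar chains 28.0% ± 4.80 and basement membrane chains 18.2% ± 0.416. *Col18a1*, whose protein carries endostatin and is a known product of hepatocytes, had the highest level per length, at 205 ± 34.9 CPM per kb of transcript (SD, n = 3). *Col4a1* followed at 45.2 ± 1.99 CPM per kb and *Col3a1*, a fibrillar chain of soft tissues, at 42.0 ± 9.0 CPM per kb. The 3 libraries of *Col18a1* did not overlap with those of *Col4a1*, but those of *Col4a1* and *Col3a1* did. From *Col1a2* (22.6 CPM per kb) through *Col14a1*, *Col4a2*, *Col6a1*, *Col1a1* and *Col6a2* to *Col5a1* (11.4 CPM per kb), every neighbour in the order overlapped with the next. The order rests on 1 transcript a gene, and *Col1a2* moved from place 4 to place 9 when all annotated exons were used as its length.

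In WT lung, collagen genes summed to 10219, 10132 and 8699 CPM. Basement membrane chains were 50.3% ± 0.50 (SD, n = 3) of collagen reads, fibrillar chains 24.7% ± 0.945, and beaded filament chains 18.8% ± 0.862. *Col4a1* led at 453 ± 31.2 CPM per kb and did not overlap with the next gene. *Col6a1* (220 CPM per kb), *Col4a2* (217), *Col6a2* (207) and *Col3a1* (169) followed, each overlapping with its neighbour. *Col1a2* (119) and *Col1a1* (66.5), the chains of type I collagen, came next and were separate from each other and from both neighbours. *Col13a1*, a transmembrane collagen of cell adhesion sites, ranked 8 at 41.0 ± 2.43 CPM per kb. The network chains were low in both tissues, with *Col8a2* the highest at 1.24 ± 0.102 CPM per kb in WT lung and 0.670 ± 0.0628 in WT liver.

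**Figure D2:**
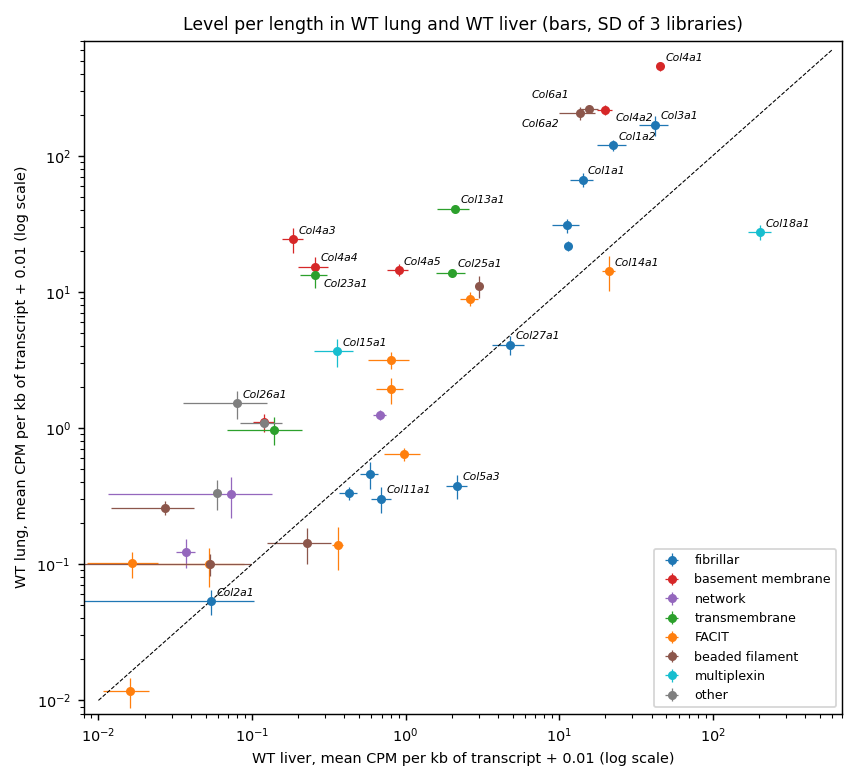
Mean level per kb of transcript in WT liver (horizontal) and WT lung (vertical) for each collagen gene, both on log scales with 0.01 added, coloured by class, with bars for the SD of 3 libraries cut short near 0, and a dashed line of equal level. *Col4a3*, *Col4a4*, *Col23a1* and *Col13a1* lay far above the line, and *Col18a1*, at 205 CPM per kb in liver and 27.4 in lung, lay far below it.

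WT lung and WT liver differed in most collagen genes. Genes were called where edgeR's quasi-likelihood test gave a Benjamini-Hochberg adjusted p under 0.05 and the change was at least 1.2-fold. Of 42 collagen genes tested, 36 were called, beside 77.0% of all genes tested in this comparison, so that the share of calls by itself is close to that of other genes. The direction was less even, with 30 higher in lung beside 39.8% of all genes. The median log2 fold change of the collagen genes, lung against liver, was 2.10, beside 0.04 for all genes. All 6 basement membrane chains, all 3 network chains and all 4 transmembrane chains were higher in lung, with class medians of 3.73, 1.98 and 3.60 on the log2 scale. Of 11 fibrillar chains, 5 were higher and 2 lower in lung.

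Among the type IV chains, *Col4a3* and *Col4a4*, which are 2 of the chains of the mature alveolar and glomerular barrier, differed most. *Col4a3*, the chain that carries the Goodpasture antigen, stood at 1.55, 1.73 and 1.23 CPM in WT liver and at 212, 252 and 165 CPM in WT lung. The groups were far apart, with a log2 fold change of 7.11 (SE 0.22, adjusted p = 7.49e-09 by edgeR's quasi-likelihood test). Exons of *Col4a3* overlap a gene on the opposite strand, and the strand setting of the counting is not known. *Col4a4*, its partner chain, rose from 2.78, 1.82 and 2.88 CPM to 170, 173 and 121 CPM (log2 fold change 5.93, SE 0.22). The common chains *Col4a1* and *Col4a2*, which are in nearly every basement membrane, had smaller differences of 3.31 (SE 0.19) and 3.44 (SE 0.18) on the log2 scale. *Col4a5* and *Col4a6* differed by 4.02 (SE 0.14) and 3.31 (SE 0.22). The type IV chains thus ranged from 3.31 to 7.11, all in the same direction.

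Each transmembrane chain was also higher in lung. *Col23a1* stood at 1.55, 1.57 and 1.06 CPM in WT liver against 66.6, 93.3 and 66.8 CPM in WT lung (log2 fold change 5.75, SE 0.21). *Col13a1* stood at 8.34, 5.90 and 5.51 CPM against 127, 138 and 124 CPM (4.28, SE 0.16). Neither gene's groups overlapped. *Col25a1*, first known from amyloid plaques, differed by 2.78 (SE 0.15), and *Col17a1*, the hemidesmosome collagen of skin and airway basal cells, by 2.91 (SE 0.34) at low levels of 3.91 to 6.22 CPM in WT lung.

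The genes higher in liver were few. *Col18a1* stood at 1105, 791 and 1048 CPM in WT liver and at 126, 149 and 119 CPM in WT lung, a log2 fold change of -2.92 (SE 0.19, adjusted p = 6.40e-07 by edgeR's quasi-likelihood test). *Col5a3*, a chain of type V collagen, was the next in size at -2.56 (SE 0.20). *Col9a3* (-1.49), *Col11a1* (-1.24), *Col20a1* (-0.63) and *Col14a1* (-0.58) were the others. *Col9a3* was low in both tissues, at 1.06, 0.991 and 1.16 CPM in WT liver and at 0.269, 0.553 and 0.353 CPM in WT lung. Its exons also overlap a gene on the opposite strand. *Col15a1*, the other multiplexin, went the opposite way to *Col18a1*, with 1.2, 2.19 and 1.99 CPM in WT liver and 18.4, 23.6 and 14.9 CPM in WT lung (log2 fold change 3.40, SE 0.25).

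The chains of types I and III and 4 of the 6 type VI chains were also called higher in lung. *Col3a1* stood at 197, 291 and 213 CPM in WT liver against 1101, 929 and 789 CPM in WT lung (log2 fold change 2.00, SE 0.20). *Col1a1* and *Col1a2* differed by 2.21 (SE 0.16) and 2.39 (SE 0.18). *Col6a1* and *Col6a2*, chains of the microfibril that links cells to matrix, differed by 3.80 (SE 0.16) and 3.92 (SE 0.21), but *Col6a3*, the large chain of the same trimer, by 1.89 (SE 0.14). *Col6a5* and *Col6a6*, low in both tissues, stood at 1.09 (SE 0.62) and -0.70 (SE 0.39) and were not called. The ratio of *Col6a1* to *Col6a3* per kb was 4.83 to 5.92 in WT liver and 17.8 to 23.8 in WT lung. In contrast, the ratio of *Col4a1* to *Col4a2* was 2.17 to 2.49 in the liver libraries and 2.01 to 2.21 in the lung libraries, null lung 1 and null liver 1 included.

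In null liver, 4 collagen genes were called, all higher than in WT liver. They were *Col4a1*, *Col4a2*, *Col14a1* and *Col18a1*, 4 of 34 tested, beside 26.9% of all genes called in this comparison and 13.5% called higher. The share of collagen genes called was thus no greater than that of all genes. In 32 of the 34 the fitted change was positive, with a median of 0.72 beside 0.02 for all genes. Of the 34, 14 had an unadjusted p under 0.05, beside 5935 of 14343 genes over all. The 10 genes not tested, among them *Col2a1* and *Col10a1*, stood at 0.867 CPM or less in the livers other than null liver 1.

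*Col14a1*, a FACIT chain that regulates fibril diameter, stood at 130, 107 and 123 CPM in WT liver and at 215, 191 and 176 CPM in null liver. The groups did not overlap, and the log2 fold change was 0.69 (SE 0.13, adjusted p = 0.00908 by edgeR's quasi-likelihood test). It was called in each of the 6 fits that left out 1 library, with 0.60 to 0.76 on the log2 scale, but not with all 12 libraries in 1 fit (0.70, adjusted p = 0.228 by edgeR). *Col18a1* stood at 1105, 791 and 1048 CPM in WT liver and at 1523, 1392 and 1910 CPM in null liver (0.71, SE 0.18, adjusted p = 0.0279 by edgeR). Here too all null libraries were above all WT libraries, and null liver 3 rather than null liver 1 was the highest.

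*Col4a1* stood at 306, 284 and 307 CPM in WT liver and at 513, 407 and 402 CPM in null liver (0.55, SE 0.13, adjusted p = 0.0194 by edgeR). *Col4a2* stood at 134, 111 and 138 CPM against 223, 178 and 165 CPM (0.56, SE 0.15, adjusted p = 0.0312 by edgeR). Both genes of this head-to-head pair were separate between genotypes, and null liver 1 was the highest library for each. Of the 6 fits without 1 library, 3 called *Col4a1*, 2 called *Col18a1* and 1 called *Col4a2*. With all 12 libraries in 1 fit *Col18a1* was the 1 collagen gene called (adjusted p = 0.0487 by edgeR).

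Without null liver 1, 5 collagen genes were called, all higher in null liver, beside 23.8% of all genes. They were *Col4a1*, *Col14a1*, *Col18a1*, *Col6a3* and *Col13a1*, and the median over 34 genes tested fell to 0.20 with 21 positive. *Col13a1* stood at 8.34, 5.90 and 5.51 CPM in WT liver and at 7.13, 12.7 and 16.1 CPM in null liver. Null liver 1 lay among the WT libraries, and without it the log2 fold change was 1.14 (SE 0.23, adjusted p = 0.0123 by edgeR, with a range of 0.0123 to 0.433 over 14 alternatives). *Col6a3* stood at 26.2, 27.9 and 26.4 CPM in WT liver and at 89.5, 36.2 and 36.8 CPM in null liver, with no overlap, and changed by 0.45 (SE 0.12) without null liver 1. *Col4a2* stood at 0.43 (SE 0.14) with an adjusted p of 0.0584 by edgeR in that fit.

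With edgeR, no fibrillar chain was called in liver with all libraries or without null liver 1. In these fits 3 and 1 had an unadjusted p under 0.05, beside 5935 of 14343 and 5618 of 14501 genes over all. DESeq2 called *Col5a1* higher, and edgeR called *Col1a1* higher without null liver 2 (log2 fold change 2.05, adjusted p = 0.0474). *Col1a1* stood at 72.9, 79.8 and 100 CPM in WT liver and at 104 and 111 CPM in null liver 2 and 3, against 603 CPM in null liver 1. *Col3a1* stood at 197 to 291 CPM in WT liver, at 200 and 240 CPM in null liver 2 and 3, and at 1058 CPM in null liver 1. Its fitted change of 1.08 turned to -0.07 without that library. The summed level of fibrillar chains was 575 to 759 CPM in WT liver, 739 and 710 CPM in null liver 2 and 3, and 3565 CPM in null liver 1.

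Summed markers of matrix-making and vessel cells are given beside the called liver genes. The 5 hepatic stellate cell markers, all present in each liver, summed to 151 to 172 CPM in WT liver and to 609, 199 and 252 CPM in null liver. The members were uneven, since in null liver 1 only 1 of the 5 was above all other livers and 1 was below them. The 5 endothelial markers summed to 240 to 251 CPM in WT liver and to 265, 283 and 273 CPM in null liver, but in null liver 1, 1 was above all other livers and 2 were below. The 5 fibroblast markers overlapped, at 356 to 464 CPM in WT and 377 to 446 CPM in null liver. The part of these cells in the collagen levels was not tested.

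**Figure D3:**
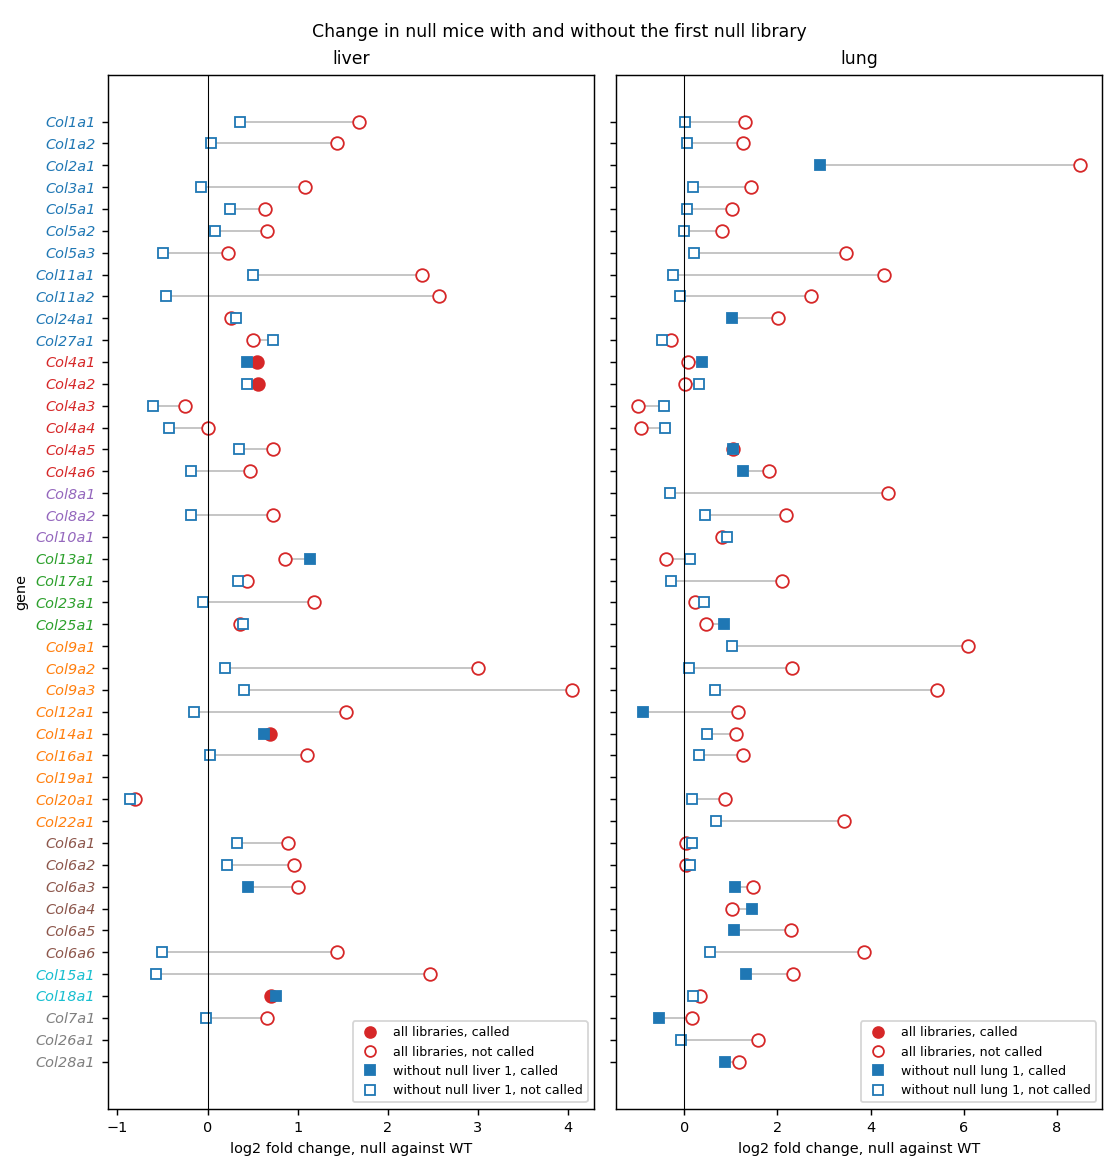
Log2 fold change, null against WT, of each tested collagen gene in liver (left) and lung (right), fitted with all libraries (circles) and without the first null library (squares), filled where called. In liver *Col14a1*, *Col18a1* and *Col4a1* were called in both fits, and in lung the called genes were all from the fit without null lung 1.

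In null lung, no collagen gene was called with all libraries. Of 43 tested, 0 passed edgeR's quasi-likelihood test, and 15 had an unadjusted p under 0.05, beside 3898 of 15591 genes over all. DESeq2 gave a p-value for 33 of the 44 collagen genes and called 9, all higher in null. Over all genes, edgeR called 0.327% and DESeq2 12.1%. The fitted change was positive in 39 of 43, with a median of 1.25 beside 0.06 for all genes. Null lung 1 was the highest of the 6 lung libraries for 31 of the 44 collagen genes, beside 32.5% of all genes tested. It was the lowest for 10 of the 44, beside 4943 of 15591 genes tested, so that being lowest was not more frequent among collagen genes.

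Without null lung 1, 13 of 43 collagen genes were called, beside 37.0% of all genes, and the median was 0.20 beside -0.01 for all genes. Higher in null were 11, including 3 of the 6 type IV chains and 3 of the 6 type VI chains, and 2 were lower. Leaving out any other lung library gave 0 calls, but those fits also called 0 of all genes, so they say nothing particular to collagen. Markers of other cell types differed too between WT lung and null lung 2 and 3. The skeletal muscle sum was 17.0 to 23.1 CPM in WT lung against 52.0 and 39.9 CPM, and the 5 stellate cell markers 91.3 to 103 CPM against 65.9 and 59.1 CPM. The 5 fibroblast markers summed to 512 to 572 CPM against 473 and 477 CPM. The sum of the cartilage list was 28.2 to 41.2 CPM against 60.5 and 48.7 CPM. Of that list, *Acan* stood at 0.155 to 0.305 CPM against 0.243 and 0.830 CPM, and *Matn1* at 0.0263 CPM or less in these libraries. Most of the sum thus came from other members of the list. Their part in the collagen levels was not tested. The values that follow are from this fit, which has 2 null libraries, with adjusted p-values by edgeR's quasi-likelihood test.

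*Col4a5* stood at 104, 95.2 and 85.6 CPM in WT lung and at 194, 231 and 164 CPM in null lung 1, 2 and 3. All null libraries were above all WT libraries, null lung 1 included. With all libraries its log2 fold change was 1.05 (SE 0.17, adjusted p = 0.0573 by edgeR), and without null lung 1 it was 1.05 (SE 0.15, adjusted p = 0.00248 by edgeR, range 1.46e-05 to 0.327 over 14 alternatives). *Col4a6*, its head-to-head partner, stood at 8.39, 6.14 and 7.24 CPM in WT lung and at 41.7, 19.4 and 15.8 CPM in null lung, again without overlap (without null lung 1, 1.27, SE 0.17, adjusted p = 0.00212 by edgeR, range 0.000535 to 0.339). *Col4a5* is known as the gene of X-linked Alport syndrome.

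*Col4a1* stood at 3180, 3045 and 2775 CPM in WT lung and at 1757, 4420 and 3384 CPM in null lung. Null lung 1 was below every other lung library and null lung 2 and 3 were above all WT libraries, giving 0.37 (SE 0.12, adjusted p = 0.0490 by edgeR, range 0.0490 to 0.998) without null lung 1. *Col4a2* had the same pattern, with 1466, 1475 and 1266 CPM in WT lung and 775, 1996 and 1498 CPM in null lung, and was not called in either fit. *Col4a3* stood at 212, 252 and 165 CPM in WT lung and at 5.14, 213 and 99.5 CPM in null lung. *Col4a4* stood at 170, 173 and 121 CPM against 8.16, 157 and 77.4 CPM. For both, null lung 1 was far below the other lungs and the remaining null libraries overlapped with WT or lay below it. The 5 endothelial markers summed to 1273 to 1483 CPM in WT lung and to 559, 1950 and 1455 CPM in null lung, and their part in the type IV levels was not tested.

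**Figure D4:**
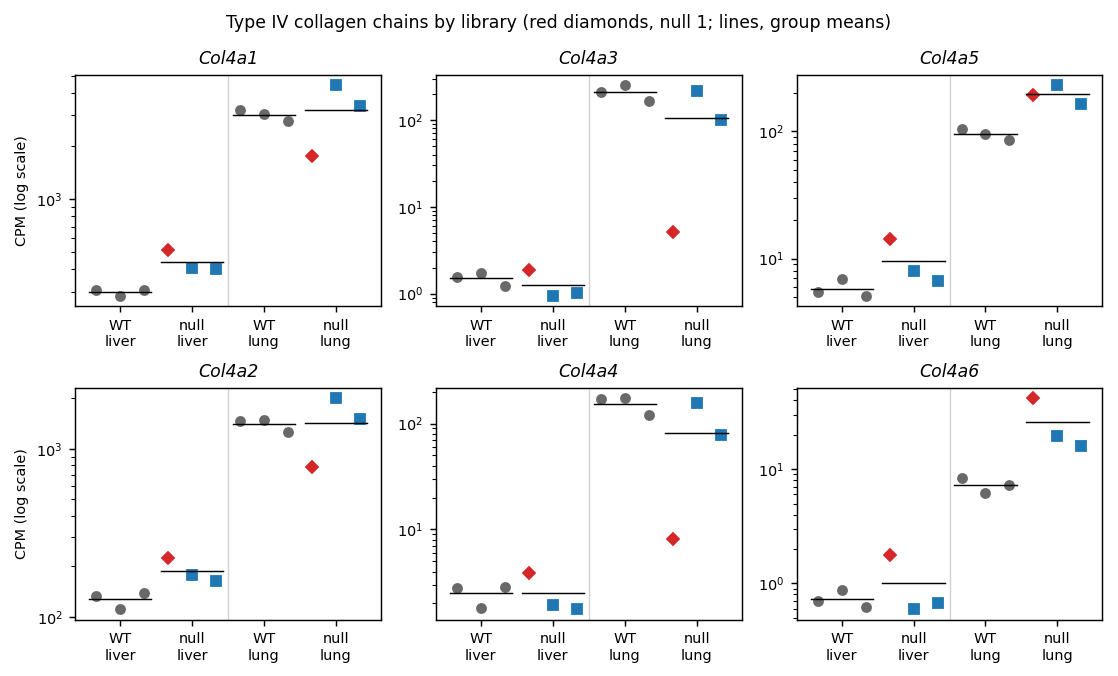
CPM on a log scale of the 6 type IV chains in each library, with WT as grey circles, null 2 and 3 as blue squares, null 1 as red diamonds and lines at the group means. *Col4a5* and *Col4a6* were higher in every null lung than in any WT lung, whereas *Col4a3* was at 5.14 CPM in null lung 1 and at 99.5 CPM or more in the other lungs.

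*Col15a1*, a multiplexin of the basement membrane zone of vessels and muscle, stood at 18.4, 23.6 and 14.9 CPM in WT lung and at 189, 57.6 and 38.1 CPM in null lung. The groups did not overlap, and the log2 fold change without null lung 1 was 1.33 (SE 0.22, adjusted p = 0.00424 by edgeR, range 0.00255 to 0.377). *Col6a3* stood at 109, 113 and 78.6 CPM in WT lung and at 402, 284 and 147 CPM in null lung (1.09, SE 0.26, adjusted p = 0.0159 by edgeR, range 0.0047 to 0.374). Its groups did not overlap either, while its partners *Col6a1* and *Col6a2* overlapped between genotypes, at 852 to 966 and 722 to 901 CPM in WT lung and 740 to 1121 and 704 to 992 CPM in null lung. The ratio of *Col6a1* to *Col6a3* per kb was 17.8 to 23.8 in WT lung and 4.03, 8.66 and 13.8 in null lung.

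*Col25a1* stood at 35.8, 37.2 and 35.4 CPM in WT lung and at 19.5, 68.7 and 61.2 CPM in null lung. Null lung 1 was below WT and the other null libraries above it, with 0.84 (SE 0.10, adjusted p = 0.00130 by edgeR, range 0.00130 to 0.844) without null lung 1. The other genes called higher in that fit were at low levels, *Col24a1*, *Col6a4*, *Col6a5*, *Col28a1* and *Col2a1*, none above 6.91 CPM in WT lung or in null lung 2 and 3. *Col2a1* in that fit rested on 0.546 and 2.90 CPM against 0.158 to 0.269 CPM, and *Col6a4* overlaps genes on the opposite strand. The 2 genes called lower were *Col12a1*, a FACIT chain, and *Col7a1*, which forms the anchoring fibrils of skin. *Col12a1* stood at 42.3, 34.6 and 32.4 CPM in WT lung and at 201, 21.5 and 18.2 CPM in null lung, so that it changed by -0.89 (SE 0.15) without null lung 1 and stood at 1.15 with it. *Col7a1* stood at 9.95, 10.8 and 9.20 CPM against 19.8, 7.28 and 6.51 CPM, and changed by -0.54 (SE 0.16). The 4 smooth muscle markers summed to 486 to 508 CPM in WT lung and to 1689, 303 and 284 CPM in null lung 1, 2 and 3, and their part in these levels was not tested.

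Fibrillar chains of types I, III and V overlapped between WT lung and null lung 2 and 3. *Col1a1* stood at 436, 402 and 346 CPM in WT lung and at 431 and 372 CPM in null lung 2 and 3. *Col3a1* stood at 1101, 929 and 789 CPM against 1126 and 1002 CPM. The summed level of fibrillar chains was 2087 to 2638 CPM in WT lung and 2735 and 2392 CPM in null lung 2 and 3. The basement membrane sum was 4419 to 5140 CPM in WT lung and 7037 and 5239 CPM in null lung 2 and 3, and the transmembrane sum was 230 to 275 CPM against 342 and 285 CPM.

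Null lung 1 and null liver 1 held a different set of collagens from the other libraries of their tissues. *Col2a1*, the main fibrillar chain of cartilage, stood at 548 CPM in null liver 1 and at 0.0413 to 0.528 CPM in the other livers. It stood at 245 CPM in null lung 1 and at 0.158 to 2.90 CPM in the other lungs. The chains that assemble with it in cartilage were high in the same pair of libraries. *Col9a1*, a type IX chain on the surface of type II fibrils, stood at 56.4 CPM in null liver 1 and 70.4 CPM in null lung 1, and below 1 CPM in the other 10 libraries. *Col11a1*, which nucleates these fibrils, stood at 68.8 CPM against 4.58 to 8.37 CPM in the other livers and at 127 CPM against 1.77 to 2.76 CPM in the other lungs. Together the 6 chains of types II, IX and XI summed to 828 CPM in null liver 1 and 604 CPM in null lung 1, against 9.93 to 15.2 CPM in the other 10 libraries. Other cartilage markers moved with them, since the 4 measured cartilage markers summed to 38.6 CPM in null liver 1 against 2.27 to 6.27 CPM, and to 96.7 CPM in null lung 1 against 28.2 to 60.5 CPM. *Col10a1*, the chain of hypertrophic cartilage, had no read in null liver 1 and stood at 0.542 CPM in null lung 1, within the range of the other lungs. The 4 bone markers summed to 0.226 CPM in null liver 1 against 0 to 0.21 CPM in the other livers, and to 1.26 CPM in null lung 1 against 0.0883 to 0.369 CPM in the other lungs.

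Type I and III chains were high in the same libraries. *Col1a1* stood at 2081 CPM in null lung 1 against 346 to 436 CPM in the other lungs, *Col1a2* at 3175 against 578 to 716 CPM, and *Col3a1* at 5470 against 789 to 1126 CPM. Yet the ratio of *Col1a1* to *Col1a2* per kb was 0.591 in null lung 1, within the range of 0.523 to 0.613 in the other lungs. The ratio of *Col4a1* to *Col1a1* per kb was 0.757 in null lung 1 against 6.54 to 9.19 in the other lungs, and 0.762 in null liver 1 against 2.75 to 3.76 in the other livers. Fibrillar chains made up 66.5% of collagen reads in null lung 1, against 21.1% to 25.8% in the other lungs, and 51.5% in null liver 1 against 19.5% to 33.1% in the other livers.

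Null lung 1 was the lowest lung library for 4 of the 6 basement membrane chains and 3 of the 4 transmembrane chains, beside 4943 of 15591 genes tested. *Col4a3* and *Col4a4* stood at 5.14 and 8.16 CPM, and *Col13a1* at 14.0 CPM against 116 to 167 CPM in the other lungs. The basement membrane sum was 2781 CPM against 4419 to 7037 CPM. *Col4a6*, at 41.7 CPM, was the highest there and *Col4a5* lay within the range of the other lungs. *Col17a1* was also highest in null lung 1, with 58.9 CPM against 3.10 to 6.22 CPM, and the skin markers were also high in this library. The network chains *Col8a1* and *Col8a2*, known from vessel walls and the cornea, stood at 98.4 and 57.7 CPM against 1.0 to 2.11 and 4.87 to 7.64 CPM. The 5 fibroblast markers summed to 1409 CPM in null lung 1 against 473 to 572 CPM in the other lungs. The members were uneven, since 3 of the 5 were above all other lungs and 2 were below them. The part of muscle, skin, cartilage and fibroblast RNA in these levels was not tested.

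**Figure D5:**
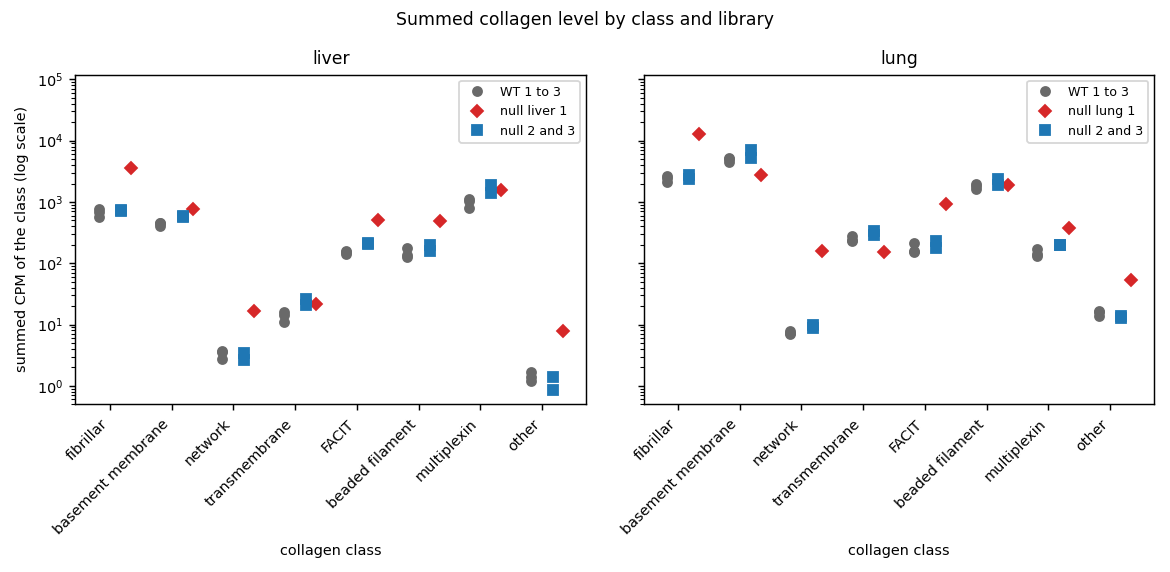
Summed CPM on a log scale of each collagen class in the 6 liver (left) and 6 lung (right) libraries, with WT as grey circles, null 2 and 3 as blue squares and null 1 as red diamonds. The fibrillar sum was 3565 CPM in null liver 1 and 12643 CPM in null lung 1, above all other libraries of the tissue, while the basement membrane sum of null lung 1 was below all other lungs.

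The genotype effects in the 2 tissues were compared as an interaction term over all 12 libraries. No collagen gene of 43 tested was called, beside 0.371% of all genes. An unadjusted p under 0.05 was found for 2, beside 2239 of 16155 genes over all. DESeq2 called 0 of 33 with a p-value, beside 3.08% of all genes. In that fit 5 had an unadjusted p under 0.05, beside 2513 of 19789 genes over all. In the fits within each tissue *Col18a1* changed by 0.71 in liver and stood at 0.33 in lung, and the interaction term was -0.39 (SE 0.29, adjusted p = 0.602 by edgeR). For *Col4a5* it was 0.32 (SE 0.36). Without both null lung 1 and null liver 1, the changes of *Col15a1* and *Col4a6* were called greater in lung. These were 2 of 43 collagen genes tested, beside 840 of 16216 genes over all, so the share called was near that of all genes. The difference was 1.90 (SE 0.41, adjusted p = 0.0270 by edgeR) for *Col15a1* and 1.46 (SE 0.35, adjusted p = 0.0364 by edgeR) for *Col4a6*, while the other settings gave 0 calls among the collagen genes.

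Genes that make, process and bind collagen were also counted. Of 23 genes for chain modification and folding in the endoplasmic reticulum, 8 were called in null liver, 7 higher and 1 lower (*Sec23a*), beside 26.9% of all genes called and 13.5% called higher, with a median of 0.28 beside 0.02 for all genes. *Serpinh1*, the collagen chaperone HSP47, stood at 53.3, 70.8 and 58.9 CPM in WT liver and at 151, 86.2 and 103 CPM in null liver, with no overlap (log2 fold change 0.89, SE 0.20, adjusted p = 0.0184 by edgeR). *P4ha2*, a subunit of prolyl 4-hydroxylase, stood at 11.8, 6.77 and 10.3 CPM against 17.5, 19.7 and 23.3 CPM (1.06, SE 0.23, adjusted p = 0.0159 by edgeR). Both were called without null liver 1 as well. *Creb3l1*, a transcription factor that acts on collagen genes, changed by 0.80 (SE 0.22) and was not called without null liver 1. That fit called 6 of the 23 genes, beside 23.8% of all genes.

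Of the 14 genes for propeptide removal and crosslinking, 12 were tested in liver and 3 called, beside the same 26.9% of all genes. *Loxl3*, a lysyl oxidase, and *Adamts14*, a propeptide protease, were higher by 0.92 (SE 0.28) and 0.61 (SE 0.19), and *Pcolce2*, an enhancer of propeptide removal, changed by -1.35 (SE 0.34). Without null liver 1 only *Pcolce2* of these was called, beside 23.8% of all genes. Of 10 collagen receptors, *Itgb1*, the shared integrin beta chain, was higher by 0.38 (SE 0.10), and *Lair1*, an inhibitory receptor of leukocytes, changed by -1.24 (SE 0.27). Without null liver 1, *Lair1* was called again, *Itgb1* was not (adjusted p = 0.0707 by edgeR), and *Itga1*, a collagen-binding integrin alpha chain, was called higher by 0.51 (SE 0.13). Of 10 genes of collagen breakdown, *Mmp8*, a collagenase of neutrophils, was higher by 1.15 (SE 0.30) and *Mmp14*, a membrane-bound collagenase, changed by -0.56 (SE 0.15), and both were called without null liver 1 as well. All calls in this paragraph were below an adjusted p of 0.05 by edgeR's quasi-likelihood test.

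In null lung, none of these 4 lists held a called gene with all libraries, beside 0.327% of all genes called by edgeR. An unadjusted p under 0.05 was found for 2, 2, 3 and 2 genes, beside 3898 of 15591 genes over all. DESeq2 called 2, 1, 3 and 1, beside 12.1% of all genes. Without null lung 1, 7 of 23 folding genes were called (3 higher, 4 lower), 5 of 13 crosslinking genes (1 higher, 4 lower), 4 of 10 receptors (all lower) and 4 of 9 breakdown genes (3 higher, 1 lower), beside 37.0% of all genes called in that fit. *Lox*, a lysyl oxidase of fibrillar collagen and elastin, stood at 397, 375 and 460 CPM in WT lung and at 593, 601 and 560 CPM in null lung, without overlap (0.49, SE 0.12, without null lung 1). Its relatives *Loxl1*, *Loxl2* and *Loxl4* were lower in that fit. *Mmp2*, a gelatinase that cuts type IV collagen, stood at 135, 147 and 125 CPM in WT lung and at 293, 193 and 219 CPM in null lung (0.60, SE 0.12, without null lung 1). *Lair1* was lower in null mice in liver and, without null lung 1, in lung, with 1.31, 1.45 and 1.28 CPM in WT lung and 0.770, 0.667 and 0.738 CPM in null lung.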

How the data were processed

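Stranded libraries of polyadenylated RNA were sequenced by the authors as pairs of 75 bp, and each of the 12 deposited tables holds the raw counts of 1 library, in whole reads for each gene symbol and without normalization. The submitters' processing notes name FastQC, STAR 2.5.2a, DESeq2 and the mm10 genome, but the counting program, strand setting and annotation are not given in the sources used here, so genes that overlap others are uncertain. In 27 rows the gene name had become a date. Positions and transcript lengths came from GENCODE M21 on GRCm38, where 95.6% of gene rows had an entry, and promoter windows from RefSeq on GRCm38.p6.

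Counts were analysed over all genes in R 4.3.3 with edgeR 4.0.16 after filterByExpr and TMM scaling, and the quasi-likelihood test was run for null against WT in liver and in lung. WT lung was compared with WT liver in the same way, and the difference of the genotype effects was an interaction term over all libraries. A gene was called at a Benjamini-Hochberg adjusted p under 0.05 when it also changed 1.2-fold or more, as in the study's methods. Standard errors were obtained by dividing the log2 fold change by the root of the F statistic. A gene with 3 counts stood at 0.0538 to 0.126 CPM, which is the counting limit of a library.

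The alternatives were DESeq2 1.42.0, its size factors or upper-quartile factors in edgeR, filters of at least 10 counts per library or 1 count in total, calls without the fold threshold, 1 fit over all 12 libraries, a block on replicate number, and fits that omit each library once. Leaving out null lung 1 and null liver 1 together was added after seeing the data. Within a genotype, the deviations of liver and lung libraries from their means had r from 0.184 to 0.468 in the 6 pairs of the same number. Libraries of unlike number were not compared, so these values cannot show that the numbers pair the tissues. The numbers come from the sample labels, and the replicate block treated them as pairs. WT and null libraries of the same number had r from -0.043 to 0.143. The lowest chi-square per gene between libraries of a group was 15.4, so none was counted as a copy. The scripts were tested on simulated data.

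Genes named in the text are the called collagen genes, the 3 genes of each class with the highest level per kb in either WT tissue, and in each further list the 3 called genes with the largest change. Genes called only under an alternative, partner chains of named chains, cartilage chains, list members given for lung, and marker genes were named after their values were seen. The collagen genes, classes, lists and tests were chosen with earlier results of these data known.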

Additional observations from a re-analysis of the deposited data

How the results depend on the processing

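Null against WT called 4 collagen genes in liver, 8 with DESeq2, 1 with all 12 libraries in 1 fit and 1 to 10 without 1 library. Over all genes, DESeq2 called 4530 of 18890 and the fit of 12 libraries 1921 of 16155. Under the replicate block 5 were called, 4 higher and 1 lower (*Col20a1*, -0.81, adjusted p = 0.0471 by edgeR), beside 3304 of 14343 genes. The 1 call with all 12 libraries was *Col18a1*. In lung the count was 0, and 9 of 33 with a p-value by DESeq2. It was 4 with all 12 libraries in 1 fit and 0 under the replicate block. Without 1 library it was 0 to 13, and the 13 were without null lung 1. Over all genes, DESeq2 called 2355 of 19455, the fit of 12 libraries 2284 of 16155, and the replicate block 0. The fit without null lung 1 called 5881 of 15885 genes. In liver the 1 call came without any of WT liver 1, 2 or 3, 10 without null liver 2 and 6 without null liver 3. Over all genes, the fits without WT liver 1, 2 and 3 called 2150, 2268 and 1641. Those without null liver 2 and 3 called 3395 of 14582 and 3170 of 14574. For WT lung against WT liver the count was 36, 36 under the replicate block and 34 to 37 without 1 library. The difference of the genotype effects gave 0 calls, and 2 without null lung 1 and null liver 1 together, a setting chosen after seeing the data. That setting called 840 of 16216 genes over all. The replicate block changed no other count of calls, and for WT against null the libraries share only a number.

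Of 987 values of single genes under an alternative, 912 kept direction and side of the threshold, 27 lost and 23 gained a call, and 25 changed sign, in 15 of 71 results. Leaving out 1 library gave log2 fold changes in liver from -0.072 to 1.44 for *Col3a1*, -0.048 to 1.57 for *Col23a1*, -0.58 to 2.99 for *Col15a1*, -0.19 to 1.07 for *Col8a2*, -0.15 to 1.99 for *Col12a1* and -0.013 to 1.01 for *Col7a1*, the lowest each time without null liver 1. In lung they ran from -0.98 to 0.12 for *Col13a1*, -0.11 to 0.13 for *Col6a2*, -0.11 to 0.17 for *Col6a1*, -0.32 to 4.95 for *Col8a1*, -0.070 to 2.01 for *Col26a1*, -0.21 to 0.37 for *Col4a1*, -0.29 to 0.31 for *Col4a2*, -0.89 to 1.61 for *Col12a1* and -0.54 to 0.43 for *Col7a1*. Upper-quartile factors gave -0.015 for *Col6a2*, -0.0050 for *Col6a1* and -0.038 for *Col4a2* in lung, and the replicate block gave -0.0038 for *Col4a1*, -0.073 for *Col4a2* and -0.034 for *Col7a1*. The cause of these changes was not tested beyond the library left out. Low genes such as *Col10a1*, with 0 to 36 counts a library, are limited by depth.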
